A study of Mus musculus with 51 samples.

Results

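Small nucleolar RNA (snoRNA) genes were described across ES cells and Bmp4-induced mesodermal cells of mouse. The 75 genes were chosen by their measured level, as all Snora and Snord symbols with FPKM (sequenced fragments scaled to gene length and library size) above 1 in at least one column of the 9 deposited tables. They are 75 of 110 such symbols among 24538 genes, 31 of the H/ACA class (Snora) of 36 and 44 of the C/D class (Snord) of 74. Since the FPKM values chose them, their levels and ratios below are a description. Of the 35 symbols left out, 25 were listed at 0 in every column, and those nearest the threshold were *Snord72* with a highest FPKM of 0.921, *Snora2b* with 0.882 and *Snord85* with 0.850. Just above it lay *Snord93* with 1.23, *Snord38a* with 1.67 and *Snora47* with 1.75.

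snoRNAs are short nucleolar RNAs that guide chemical modification of other RNAs, mostly ribosomal RNA. C/D snoRNAs pair with their target and place a ribose methyl group through the methyltransferase Fibrillarin (*Fbl*), whereas H/ACA snoRNAs direct the conversion of uridine to pseudouridine by Dyskerin (*Dkc1*). A few of them are needed for the cutting of the ribosomal RNA precursor rather than for its modification. In mammals most are cut out of introns of host genes, many of which code for ribosomal proteins or are noncoding RNAs named Snhg for this role. Ribosomes are made at high rates in ES cells and in the dividing cells of early mesoderm.

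RNA-seq was analysed from 18 samples in 14 groups, the ES state and days 1 to 3 after addition of Bmp4 at 20 ng/ml. The F1G4 WT line gave 2 samples at each of these stages, and 3 mutants derived from it (the *Eomes/T* dKO, the *T* KO and the *Eomes* KO) gave 1 sample each on days 2 and 3. A separate line of strain 129S/SvEvxC57BL/6 gave *Smad4* KO samples and its own WT samples, 1 each on days 1 and 2. The question was how loss of these factors changes the path to cardiac mesoderm. In the *Eomes* and *T* mutants the promoter and the first exon were removed by CRISPR/Cas9 nickase, the dKO line was made from *Eomes* KO cells, and in *Smad4* KO cells the floxed first exon was removed by transient Cre. Each KO line is a single clone, so that clone and genotype cannot be told apart. All groups came from ES cells freed of feeder cells, and the days 1 to 3 samples all received Bmp4.

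*Eomes* was at FPKM 2.42 and 0.276 in *Eomes* KO cells on days 2 and 3 against 9.5 and 19.4 in the WT time course, and at 1.24 and 0.346 in dKO cells. *T* was at 6.64 and 3.00 in *T* KO cells against 43.5 and 319.9, and at 2.77 and 1.93 in dKO cells. *Smad4* was not lower in the libraries labelled *Smad4* KO (39.4 against 33.8 on day 1 and 46.8 against 39.3 on day 2), but FPKM covers the whole gene and the deletion only its first exon, so this value does not check the label. The 6 pluripotency markers were above FPKM 1 in every group but *Smad4* KO day 2, where 5 were. The summed level of 6 nascent mesoderm markers was 71.3 and 420.6 in WT on days 2 and 3 and 2.84 to 46.4 in the KO groups of those days (76.6 in *Smad4*-line WT cells on day 2), while 6 feeder fibroblast markers summed to between 0.600 and 5.26 in every group. The 5 lateral and cardiac mesoderm markers summed to 9.11 in WT on day 2 and to 2.35 to 8.03 in the KO groups of that day. On day 3 they summed to 23.6 in WT, 65.1 in *Eomes* KO, 30.7 in *T* KO and 34.5 in dKO cells. At most 2 of them were above FPKM 1 in each of these groups. The neural markers *Sox1* and *Pax6* summed to 0.303 and 0.239 in WT on days 2 and 3 and to between 1.05 and 14.0 in the KO groups of those days. The part of any of these shifts in the snoRNA values was not tested.

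How much RNA stands behind an FPKM value could be read from the tables. For short genes of 1 exon, FPKM multiplied by length came in whole multiples of a step, the worth of 1 sequenced fragment. A single step covered 90.8% to 95.9% of the low values (at most 300 fragments, within 0.05 fragments of a whole number) in each of the 10 KO and *Smad4*-line columns, as values of 1 library each would, the number of samples the labels give. Figure legends of the study describe some KO values as averages over replicates, which was not resolved here. The F1G4 WT columns followed sums of 2 steps and are means of 2 libraries. From these steps, 1 fragment in 100 bases was worth an FPKM of 0.267 (*T* KO day 3) to 0.553 (*T* KO day 2). Of the 75 members, 28 had at least 100 fragments in the column where they were highest (18 H/ACA and 10 C/D), 23 had fewer than 10 (3 H/ACA and 20 C/D), and 10 fewer than 5. *Snord93*, of 45 bases, passed the threshold on 1 fragment. For *Snora24*, *Snora26*, *Snora28* and *Snora62* the RefSeq length gave no whole numbers, so their fragment numbers are approximate.

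All 75 members were found in the RefSeq annotation of GRCm38.p6, the same build as the mm10 genome the authors used. The H/ACA members span 98 to 198 bases (median 122) and the C/D members 45 to 221 (median 68). A longer gene on the same strand held 73 of them, 53 within protein-coding and 20 within noncoding hosts, and the 2 without a host were *Snord118* and *Snord89*. Of the 73, 71 lay in an intron. The exceptions were *Snora24* and *Snora26*, which overlap exons of *Snhg8* and *Dancr*, so that reads of the spliced host cannot be told apart from reads of the snoRNA there. Ribosomal protein genes hosted 23 members, and *Rpl13a* alone hosted 4 (*Snord32a*, *Snord33*, *Snord34* and *Snord35a*), which share 1 precursor.

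The class of a snoRNA can be seen in its sequence. The sequences of 9 members on which the results turn are given from RefSeq, 5′ to 3′ as DNA letters of the RNA strand, with the letters TGATG within the first 20 bases (C box) and CTGA within the last 12 (D box) in capitals for C/D members, and ACA within the last 8 bases for H/ACA members. The first set is the abundant or strongly varying members. *Snord22* (chr19:8725866-8725991, plus strand), *Snora21* (chr11:97781639-97781766, minus strand), *Snora52* (chr7:141448803-141448936, plus strand), *Snord87* (chr1:9942470-9942543, minus strand) and *Snord118* (chr11:69073426-69073562, plus strand) are shown for their differences between WT and KO libraries.
Snord22: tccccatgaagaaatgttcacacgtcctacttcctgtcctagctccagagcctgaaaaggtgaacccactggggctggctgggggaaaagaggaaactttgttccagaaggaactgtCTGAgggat
Snora21: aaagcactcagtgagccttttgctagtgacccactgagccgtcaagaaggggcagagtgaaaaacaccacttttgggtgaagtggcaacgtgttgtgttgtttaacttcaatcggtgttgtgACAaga
Snora52: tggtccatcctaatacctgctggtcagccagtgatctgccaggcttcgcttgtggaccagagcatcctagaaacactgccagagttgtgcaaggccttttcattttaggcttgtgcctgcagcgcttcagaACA
Snord87: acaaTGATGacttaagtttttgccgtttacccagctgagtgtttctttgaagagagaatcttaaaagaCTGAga
Snord118: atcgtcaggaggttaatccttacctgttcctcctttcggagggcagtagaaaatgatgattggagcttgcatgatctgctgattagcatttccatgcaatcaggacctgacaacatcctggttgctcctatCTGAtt
The second set is the 4 neighbours in introns of *Rpl13a*, *Snord32a* (chr7:45127383-45127463, minus strand), *Snord33* (chr7:45126864-45126945, minus strand), *Snord34* (chr7:45126603-45126668, minus strand) and *Snord35a* (chr7:45126347-45126435, minus strand), shown because a single precursor gave 4 snoRNAs of unlike values.
Snord32a: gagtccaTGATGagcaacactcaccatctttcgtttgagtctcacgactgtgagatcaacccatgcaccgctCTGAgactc
Snord33: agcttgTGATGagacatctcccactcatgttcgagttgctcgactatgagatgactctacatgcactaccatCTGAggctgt
Snord34: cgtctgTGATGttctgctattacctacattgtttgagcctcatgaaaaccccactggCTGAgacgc
Snord35a: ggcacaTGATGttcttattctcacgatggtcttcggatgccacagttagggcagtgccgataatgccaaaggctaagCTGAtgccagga
CTGA was present in the last 12 bases of 42 of 44 C/D members (95.5%) and of 2 of 31 H/ACA members (6.45%), against 6.82% of 88 windows of the same lengths beside the C/D genes. ACA was present in the last 8 bases of 29 of 31 H/ACA members (93.5%) and 1 of 44 C/D members (2.27%), against 8.06% of 62 windows beside the H/ACA genes. TGATG in the first 20 bases was found in 18 C/D members (40.9%), in no H/ACA member and in 4.55% of the windows beside C/D genes. Only the RNA strand was searched, and CTGA and ACA can share a letter A (CTGACA). GC content had a median of 47.7% in H/ACA and 47.0% in C/D members.

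The level of members differed widely within each library. *Snora74a*, an H/ACA snoRNA of 198 bases in an intron of *Snhg4*, was the highest member in WT cells on each of days 1 to 3, at FPKM 793, 1005 and 847, and stood at 448 in ES cells. Among C/D members *Snord15b* had the highest median over the 14 groups (325), followed by *Snord22* (272), *Snord15a* (149), *Snord17* (146), *Snord87* (83.0) and *Snord82* (71.6). After *Snora74a* (median 1384), the H/ACA members with the highest medians were *Snora52* (86.5), *Snora16a* (59.6), *Snora21* (47.5), *Snora24* (40.3) and *Snora33* (36.1). FPKM is a level per length, but recovery of RNAs this short was not measured, no effective length correction was made, and *Snora24* shares reads with its host, so the order of these medians is approximate. *Snord15a* and *Snord15b* are close relatives within introns of *Rps3* and may share reads.

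Of the 75 members, 27 were above FPKM 1 in every group (14 H/ACA and 13 C/D), 8 in a single group, and 20 (4 H/ACA and 16 C/D) in KO groups but in no WT group. These 20 entered the set through KO columns alone. The same shares over all genes are not given here, so these counts do not set snoRNA genes apart from other genes. Many of these 20 rested on few fragments, such as *Snord110* (1.87) and *Snord93* (1.23), which were above FPKM 1 in *T* KO cells on day 2 alone. Summed over the members, the level was 1154 in WT ES cells, 1872, 2098 and 2201 on days 1 to 3, and 10731 and 13817 in dKO cells on days 2 and 3. The median C/D member was below FPKM 1 in every WT group of F1G4 (0.199 to 0.970), and the median H/ACA member at 1.19 to 3.71. Some snoRNAs with a known role outside ordinary rRNA modification were listed at 0 throughout, among them *Snord116* of the imprinted Prader-Willi region and *Snord64*, and likewise *Snord14a*, *Snord14c* and *Snord14d*.

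**Figure D1:**
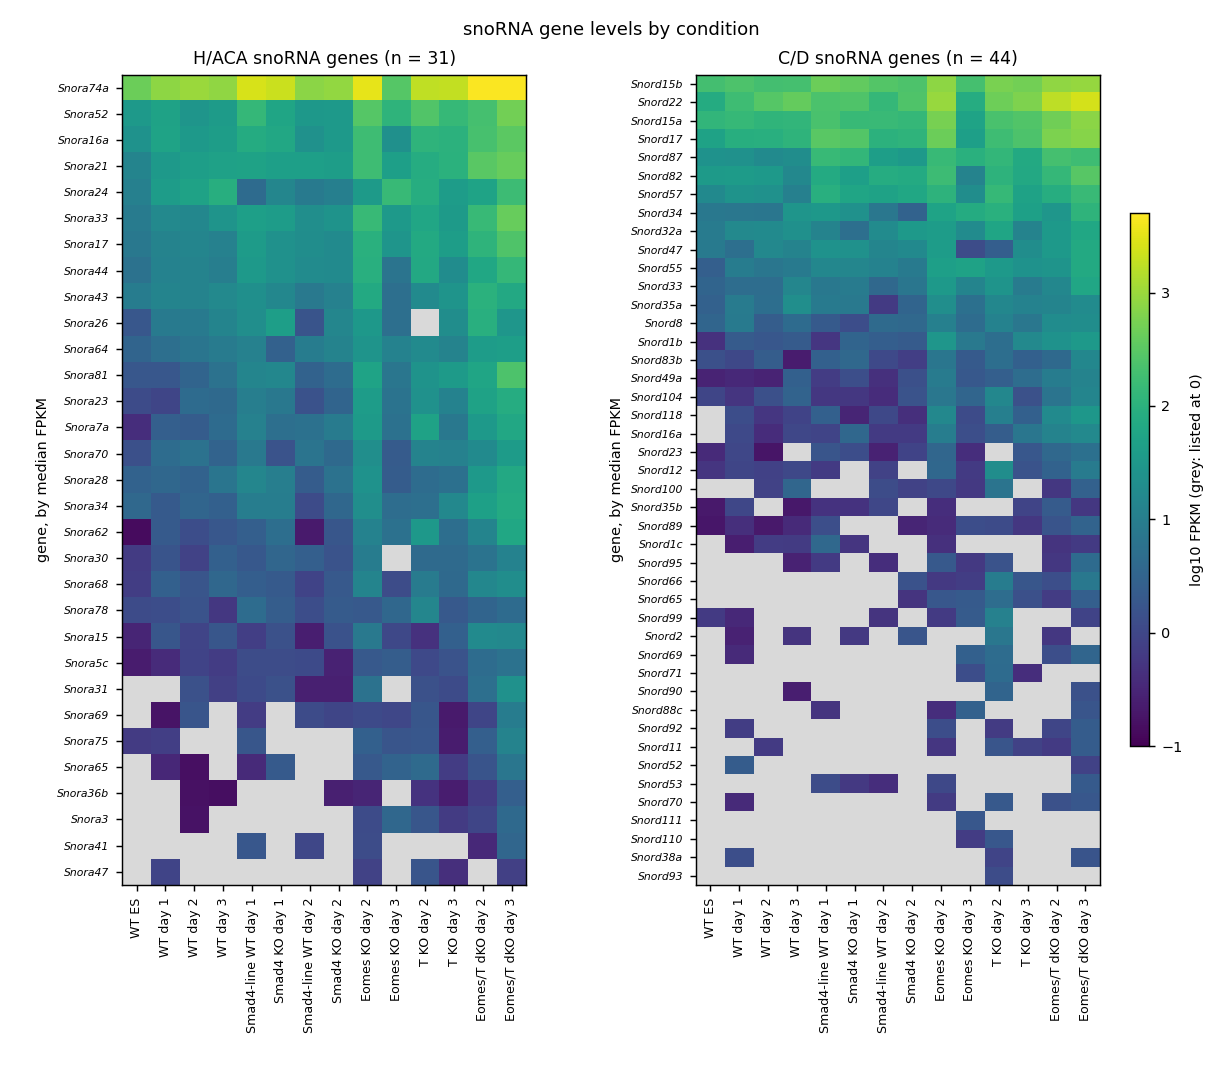
FPKM of the 31 H/ACA and 44 C/D snoRNA genes (rows, by median) in the 14 groups (columns), on a log10 colour scale with genes listed at 0 in grey. The dKO day 3 column was the highest of the 14 for 49 of 75 members, and grey cells are frequent among the lower C/D genes.

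In the WT time course, snoRNA genes were higher on day 1 than in ES cells and then changed in mixed directions. A gene was examined in a comparison when its FPKM was above 1 in either column and called where that ratio, in log2, passed 1 or −1, and since each deposited column is a single value per gene no test was run. On day 1, 43 of the 75 members were examined, and 21 were called higher than in ES cells and 0 lower, where 7.7% of 11030 genes were called higher and 5.84% lower. The median log2 ratio was 0.92 for H/ACA and 0.88 for C/D members, against −0.06 over all genes. *Snora21* went from FPKM 13.4 to 35.1, *Snora24* from 11.4 to 40.4, *Snora16a* from 24.7 to 52.4 and *Snord22* from 79.5 to 171.9.

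From day 1 to day 2, 6 of 46 examined members were called higher and 6 lower, against 7.17% and 4.13% of all genes. *Snord47*, from an intron of *Gas5*, was the only called member with FPKM of at least 10, and went from 5.20 to 15.8. From day 2 to day 3, 9 of 44 were called higher and 5 lower, against 6.14% and 4.06% of all genes. Of the snoRNAs of *Rpl13a*, *Snord34* went from 7.13 to 28.0, *Snord35a* from 4.91 to 20.8 and *Snord33* from 4.69 to 14.3, while *Snord32a* was at 18.1 and 23.1. In the other direction, *Snord57* went from 24.0 to 11.3 and *Snord82* from 32.9 to 15.9.

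These means concealed a large gap between the 2 WT libraries of a stage. In each WT column whole fragments of both libraries could be recovered for part of the members, and the library in which 1 fragment was worth less is called the deeper one. Which of them is replicate 1 in the labels cannot be told apart. On day 2, *Snora21* was at FPKM 79.9 in the deeper library and 5.03 in the other (282 and 16 fragments), *Snord22* at 530.7 and 38.9 (1844 and 122 fragments), and *Snora33* at 27.6 and 1.91. *Snord17* was at 141.8 and 44.2, whereas *Snord82* was at 36.8 and 29.0 and *Snord87* at 19.1 and 15.8. A pair of members went the other way by over 2-fold, *Snord57* at 10.9 and 37.0 and *Snord34* at 3.30 and 11.0. Thus the spread between replicates reached over 10-fold for some members and was slight for others.

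On day 3 the gap was wider by the median of C/D members but not by that of H/ACA members. *Snord22* was at 749.6 in the deeper and 36.02 in the other library, *Snora21* at 91.5 and 7.68, *Snora33* at 52.5 and 1.80, and *Snord34* at 54.3 and 1.72 (104 and 3 fragments). The day 3 value of *Snord34* in the WT column, which exceeded that of day 2, thus came almost wholly from 1 library. *Snord35a* likewise was at 38.7 in the deeper library with 100 fragments and at 2.97 in the other with 7. Among 27 members with at least 20 fragments in all, 23 were over 2-fold lower in the other library and 0 higher, where 26.8% of 1643 genes decoded in the same way were lower and 16.6% higher. On day 2, 14 of 25 such members were lower and 2 higher, where 12.5% and 20% of 1689 genes were. On day 1, 6 of 8 were lower and 0 higher, where 20.1% and 15.6% of 941 genes were. In ES cells, the reference of the day 1 ratios, 7 of 12 were lower and 0 higher. The median log2 ratio of the other to the deeper library was −1.27 there, and the share over all genes is not given here. The log2 ratio of the other to the deeper library on day 2 had a median of −2.52 for 12 H/ACA and −0.63 for 13 C/D members, and 0.15 for 1664 other genes, and on day 3 it was −2.12, −2.22 and −0.20. *Snora74a* had too many fragments for a single solution, and every solution within rounding put it at 1436 to 1440 and 570.3 to 574.6 on day 2, and at 1122 to 1129 and 565.2 to 572.4 on day 3.

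**Figure D2:**
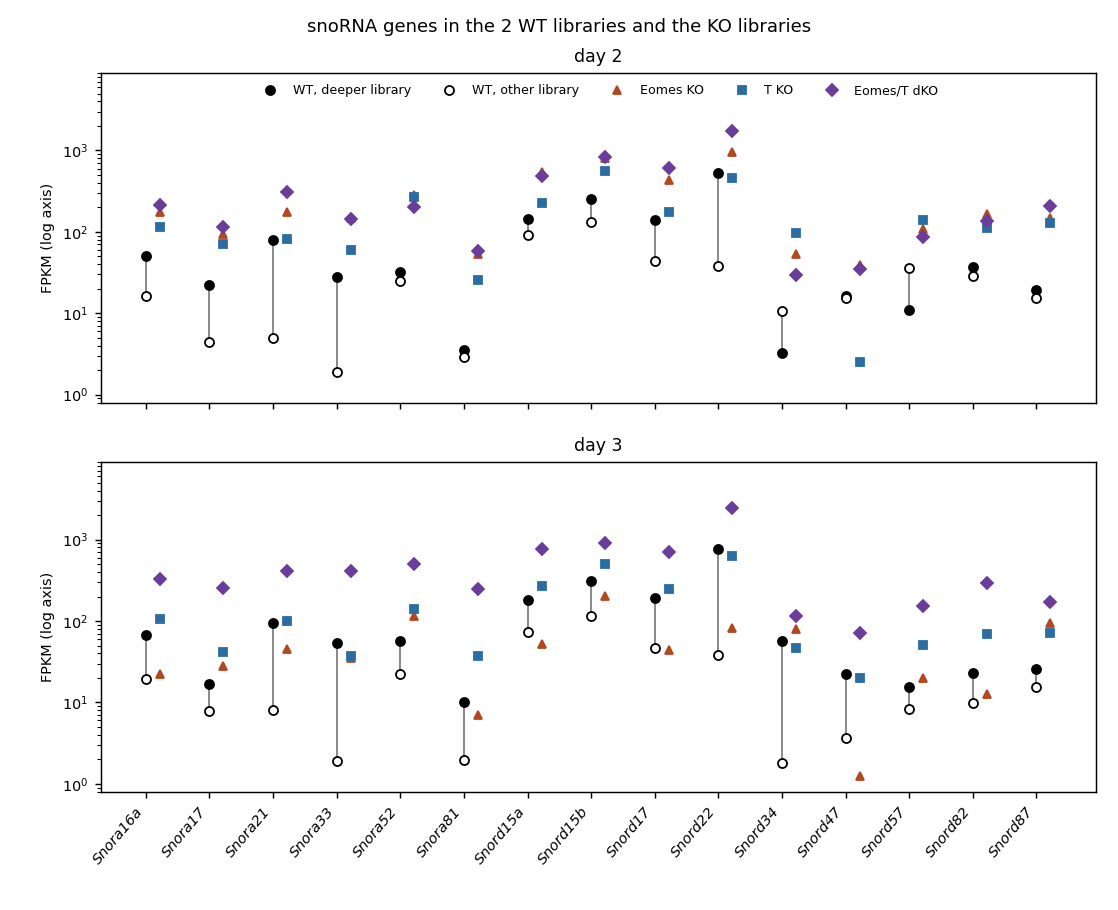
FPKM (log axis) of 15 snoRNA genes in the deeper (filled circle) and the other (open circle) F1G4 WT library, joined by a line, and in the libraries of the Eomes/T dKO, T KO and Eomes KO, on day 2 (top) and day 3 (bottom). The dKO symbols stand above both circles for all 15 genes on both days, and the Eomes KO symbols do so for all 15 on day 2 but fall within or below the WT range for 10 on day 3.

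snoRNA genes of both classes were higher in *Eomes* KO than in WT cells on day 2. Of 56 examined members 52 were called higher and 0 lower, 26 of 29 H/ACA and 26 of 27 C/D, where 3.35% of 11226 genes were called higher and 4.17% lower. The median log2 ratio was 2.84 for H/ACA and 2.42 for C/D members, against −0.01 over all genes, and the other 19 members were at or below FPKM 1 in both columns. These are bulk values, so that more cells of a type and more RNA per cell cannot be told apart. In the H/ACA class *Snora81* went from 3.21 to 53.6, *Snora7a* from 2.28 to 36.4 and *Snora52* from 28.5 to 287.7. In the C/D class *Snord118*, which is needed for processing of the large-subunit rRNA and is transcribed from its own promoter, went from 0.541 to 15.5, *Snord1b* from 1.9 to 29.8 and *Snord87* from 17.3 to 147.9.

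Against each WT library of day 2 by itself, this difference held for nearly every member with enough fragments. Of 37 members with at least 20 fragments over the 3 libraries, 37 were higher in *Eomes* KO cells than in either WT library and 34 by over 2-fold, where 10.7% of 2024 genes decoded alike were. *Snora52* was at 287.7 against 31.9 and 25.1, and *Snord82* at 165.1 against 36.7 and 28.5. The margin was small for members whose WT libraries lay far apart. *Snord22* was at 945.7 against 529.8 and 38.3, and *Snora21* at 177.1 against 79.8 and 4.95. *Snora74a* was at 3381. With 1 library against 2 an exact permutation test cannot give a one-sided p below 0.333, and none was run.

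*Eomes/T* dKO cells showed the same direction on both days in values of their own. On day 2, 50 of 54 examined members were called higher and 0 lower (25 of 27 in each class), where 3.48% of 11195 genes were higher and 4.5% lower. Class medians were 2.99 for H/ACA and 2.6 for C/D members. *Snora15* went from 0.934 to 17.5, *Snora81* from 3.21 to 58.6, *Snord118* from 0.540 to 17.4 and *Snord16a* from 0.397 to 12.4. The last rested on 29 fragments in dKO cells. Of 35 members with enough fragments, 35 were above both WT libraries and 30 by over 2-fold, where 10.3% of 1994 genes were. *Snord22* was at 1717 against 528.4 and 38.3, *Snord17* at 600.6 against 141.1 and 43.5, and *Snord47* at 35.4 against 16.1 and 15.2. The F1G4 WT columns are shared by the *Eomes* KO, *T* KO and dKO comparisons of a day.

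In dKO cells on day 3, 49 of the 75 members had their highest FPKM of the 14 groups, and the same share over all genes is not given here. Of 65 examined members 62 were called higher and 0 lower (29 of 30 H/ACA and 33 of 35 C/D), where 5.51% of 11473 genes were higher and 5.53% lower. Class medians were 3.65 for H/ACA and 3.08 for C/D members, and −0.03 over all genes. *Snora81* went from 6.07 to 246.1, *Snora62* from 1.96 to 62.9, *Snora31* from 0.795 to 23.4, *Snord83b* from 0.231 to 14.8 and *Snord82* from 16.5 to 295.7. *Snord118* stood at 31.4 against 1.82 and 0 in the WT libraries (87 against 7 and 0 fragments). Of 39 members with enough fragments 37 were over 2-fold above both WT libraries, where 15% of 1881 genes were. The exception in direction was *Snord35a*, at 18.9 against 40.01 and 3.11. Its neighbours in *Rpl13a* were at 116.0 (*Snord34*), 63.4 (*Snord32a*) and 59.6 (*Snord33*), where the deeper WT library had 56.1, 40 and 28.2. The 3 examined members not called were *Snora24* (90.4 and 163.9), *Snord100* (3.67 and 2.91) and *Snord35a* (21.6 and 18.9).

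In *T* KO cells snoRNA genes were higher on both days, with more exceptions. On day 2, 48 of 63 examined members were called higher and 2 lower (18 and 1 of 28 H/ACA, 30 and 1 of 35 C/D), where 5.7% of 11359 genes were higher and 9.93% lower. The median log2 ratio was 2.1 for H/ACA and 2.83 for C/D members. *Snora62* went from 1.35 to 31.5, *Snora7a* from 2.38 to 51.8, *Snora52* from 29.7 to 268.4, *Snord12* from 0.859 to 20.1, *Snord118* from 0.564 to 10.5 and *Snord34* from 7.32 to 96.3. The 2 lower ones were *Snord47*, from 16.3 to 2.55, and *Snora26*, listed at 0 against 8.43. *Snord47* had 3 fragments there, against 29 and 25 in the WT libraries, so that it was below both.

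Of the 12 members with the highest class medians, 6 were called higher on that day (*Snora52*, *Snora16a*, *Snora33*, *Snord15b*, *Snord87* and *Snord82*) and 6 were not called. *Snord15b* went from 202 to 563.2. *Snord22* was at 460.9 against 553.3 and 39.8, *Snora21* at 82.9 against 83.3 and 5.13, and *Snora74a* at 1763 against 1042 in the WT column, all 3 not called. Of 32 members with enough fragments, 22 were over 2-fold above both WT libraries, where 11.7% of 1909 genes were. Among those 50 calls, 12 rested on fewer than 5 fragments in the higher column, and with at least 10 fragments 28 of 41 members were called higher.

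On day 3, 25 of 49 examined members were called higher in *T* KO cells and 3 lower, where 2.12% of 11239 genes were higher and 3.92% lower. Class medians were 0.94 for H/ACA and 1.11 for C/D members. *Snora81* went from 5.90 to 37.0, *Snora34* from 2.79 to 15.4, *Snora70* from 3.16 to 11.8, *Snord1b* from 2.27 to 16.0, *Snord57* from 11.4 to 51.3 and *Snord82* from 16.0 to 70.0. The snoRNAs of *Rpl13a* did not share this. *Snord32a* was at 12.5 against 38.9 and 7.56 in the WT libraries, *Snord33* at 9.13 against 27.5 and 1.40, and *Snord34* at 47.0 against 54.6 and 1.74, each within the WT range. Of 34 members with enough fragments, 12 were over 2-fold above both WT libraries, where 8.27% of 1911 genes were. Within the range of the WT libraries lay 14 of the 34, near the share of other genes decoded alike (742 of 1877). The lower ones were *Snora24* (88.0 to 40.2), *Snord104* (3.11 to 1.46) and *Snord100*, listed at 0 against 3.57.

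In *Eomes* KO cells on day 3 members were called in both directions. Of 56 examined members 21 were called higher and 12 lower, where 7.39% of 11629 genes were higher and 9.01% lower. The median log2 ratio was 0.33 for H/ACA and 0.39 for C/D members, but that of the 18 C/D members with at least 10 fragments was −0.28. *Snora74a* went from 882.8 to 289.2, *Snord22* from 407.5 to 82.9, *Snord17* from 119 to 44.5, *Snora43* from 16.6 to 5.30, *Snora26* from 13.8 to 5.29, *Snord35a* from 21.6 to 5.52 and *Snord47* from 13.1 to 1.26. Of the 12 members with the highest class medians, 4 were called lower (*Snora74a*, *Snord22*, *Snord15a* and *Snord17*), 2 higher (*Snora52* and *Snord87*) and 6 were not called, among them *Snord15b* at 213.2 and 205.4. Among members called higher, *Snord55* went from 8.48 to 51.5, *Snord87* from 20.6 to 95.2, *Snord34* from 29.0 to 79.4, *Snora52* from 39.7 to 115.2 and *Snora17* from 12.3 to 28.2.

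Many of these values lay within the range of the WT libraries. *Snord22* at 82.9 lay between 777.2 and 37.9, *Snora33* at 35.5 between 54.4 and 1.9, and *Snord35a* at 5.52 between 40.1 and 3.13. *Snord17* at 44.5 was just below the lower of 192.0 and 46.5. *Snora74a*, at 289.2, was below the 565.2 that is its lowest WT solution. That solution is on the scale of the WT time course, where the WT column was at 847 against 882.8 in this comparison. *Snord87* was at 95.2 against 25.6 and 15.6 and *Snord55* at 51.5 against 12.4 and 4.59, both over 2-fold above either library. Of 29 members with enough fragments, 3 were over 2-fold above both WT libraries, where 17.4% of 1926 genes were. Within the range of the WT libraries lay 16 of the 29, where 560 of 1897 other genes decoded alike did.

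**Figure D3:**
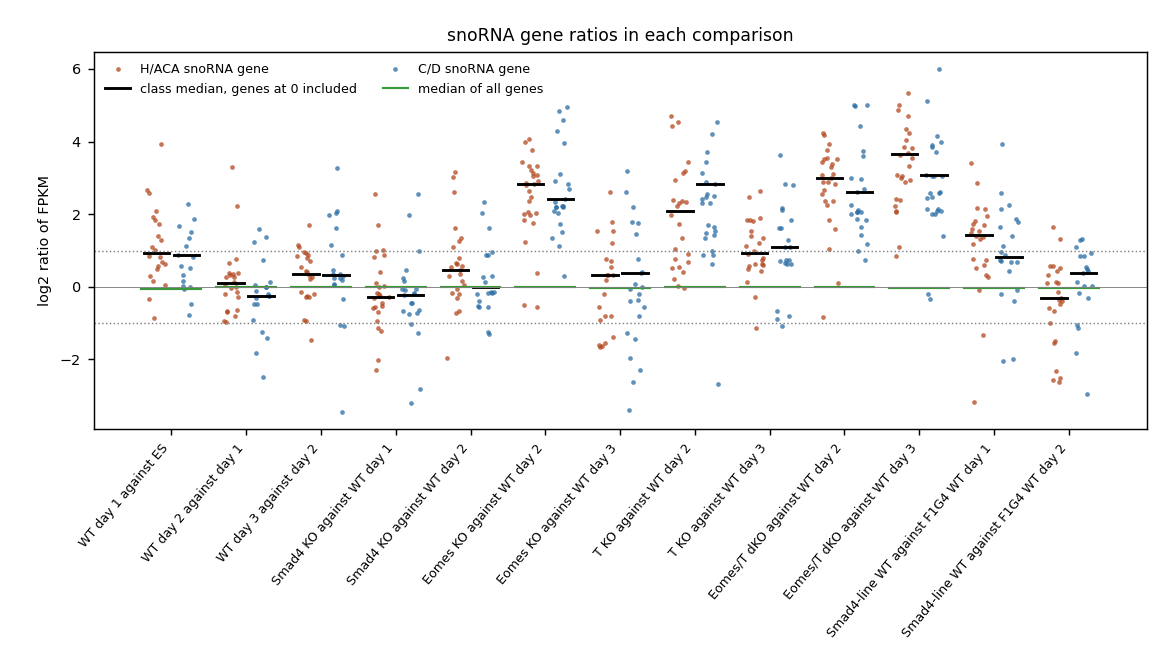
log2 ratio of FPKM of each examined snoRNA gene above 0 in both columns (points, H/ACA and C/D side by side) in 13 comparisons, with the median of each class (black, genes at 0 included), the median of all examined genes (green) and dotted lines at 1 and −1. The class medians lie between 2.1 and 3.65 in the Eomes KO and T KO on day 2 and the dKO on both days, and between −0.28 and 0.45 in the Smad4 KO comparisons.

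Between the library labelled *Smad4* KO and its WT counterpart, more members were called lower than higher on day 1 and more higher than lower on day 2. On day 1, 5 of 50 examined members were called higher and 11 lower, where 2.36% of 11232 genes were higher and 2.41% lower, and the median log2 ratio was −0.28 for H/ACA and −0.23 for C/D members. *Snora52* went from 133.9 to 57.8 (424 and 185 fragments), *Snora64* from 11.6 to 2.86, *Snora7a* from 11.5 to 5.19 and *Snord32a* from 12.5 to 5.17, while *Snora24* went from 4.47 to 14.6 and *Snora26* from 21.1 to 42.6. On day 2, 12 of 47 were called higher and 4 lower, where 2.56% of 10999 genes were higher and 3.21% lower. *Snora26*, which overlaps an exon of *Dancr*, went from 1.64 to 14.7 and was the only called member with FPKM of at least 10. Only 5 of these 12 and 1 of these 4 had at least 10 fragments.

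WT cells of the 2 lines differed on day 1 too. Compared across tables, 27 of 50 examined members were called higher in *Smad4*-line WT and 6 lower, where 6.58% of 11177 genes were higher and 4.27% lower. *Snora74a* was at 2616 against 793, *Snord17* at 308 against 89.2, *Snord87* at 146.4 against 24.3 and *Snora81* at 13.9 against 1.92. On day 2, 6 of 44 were called higher and 11 lower, where 1.53% of 11119 genes were higher and 3.62% lower, with *Snora74a* at 775 against 1005 and *Snord22* at 136.8 against 284.8. Line, batch and library cannot be told apart in this comparison.

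In the *Eomes* KO and *T* KO libraries of day 2 and in both dKO libraries, snoRNAs differed more than the genes that host them. Smaller gaps were also present between WT samples, so a gap is not particular to KO libraries. Median log2 ratios of members and hosts were 1.17 and 0.05 between the WT lines on day 1, and 0.82 and 0.03 on WT day 1 against ES cells. In *T* KO cells on day 3 they were 0.90 and 0.08. In *Eomes* KO cells on day 2, the median log2 ratio was 2.37 over 47 members with FPKM above 0 in both columns and 0.28 over their hosts. There 40 members exceeded their host's ratio by over 1 and 3 fell below it by over 1. In dKO cells on day 3 the medians were 3.03 and 0.30 over 46 members, and 41 exceeded their host by over 1 while 1 fell below by over 1. *Snhg4*, host of *Snora74a*, was at 14.5 in WT and 16.3 in dKO cells on day 3, while *Snora74a* was at 878.8 and 4665. *Eif4a2*, host of *Snora81*, was at 233.6 and 203.6. *Rpl13a* was at 1449 and 1937. The member that fell below was *Snora26* (13.8 to 29.5), whose host *Dancr* went from 14.7 to 191.8.

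In *T* KO cells on day 2 the medians were 1.98 over 45 members and −0.02 over their hosts, with 31 members above and 2 below their host by over 1. This did not hold in *Eomes* KO cells on day 3. The medians there were −0.19 over 41 members and −0.34 over their hosts, with 8 above and 11 below. In the latter, *Rpl23* (1646 to 727.1) and *Rplp2* (2865 to 1356) were called lower, while *Snora21* within *Rpl23* was at 51.5 and 45.1 and *Snora52* within *Rplp2* was higher. *Gas5* was at 71.6 and 138.6 in the *T* KO comparison of day 2, where *Snord47* within it was lower. *Zfas1*, host of *Snord12*, went from 23.4 to 10.6 there, where *Snord12* was higher.

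**Figure D4:**
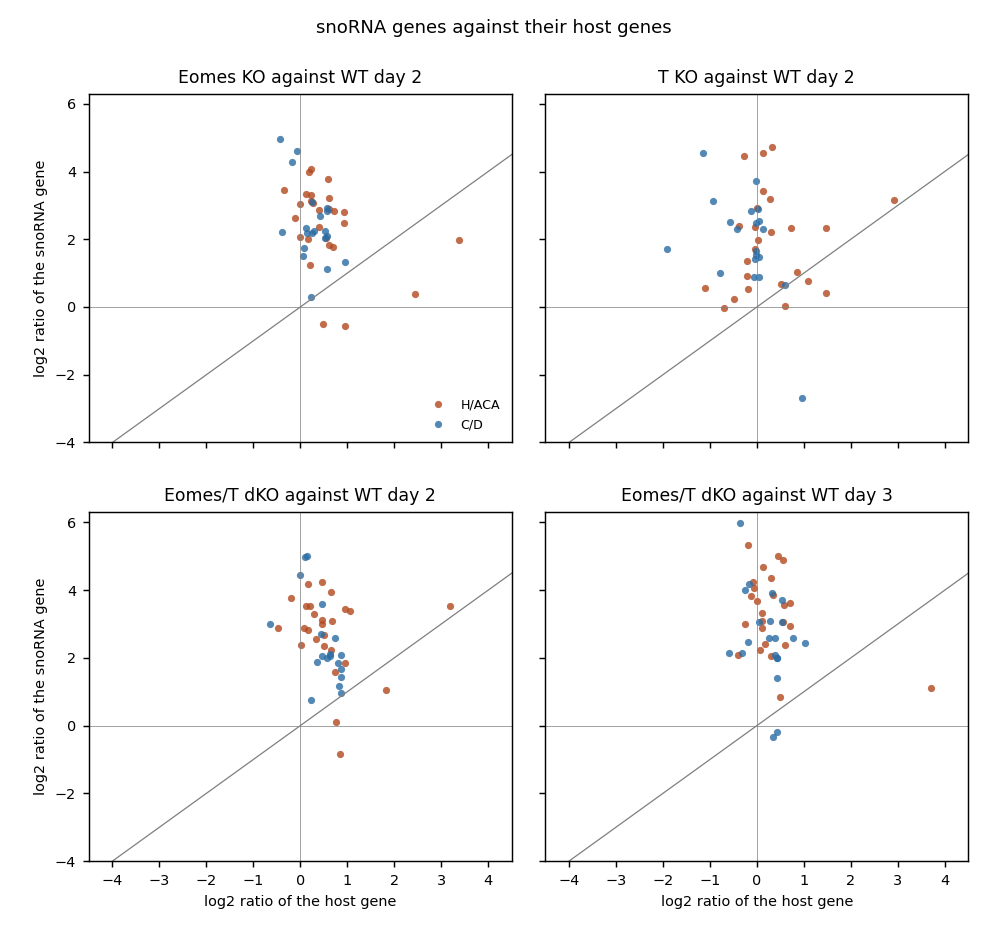
log2 ratio of each snoRNA gene (vertical) against that of its host gene (horizontal) in 4 comparisons, for genes above 0 in both columns, H/ACA in brown and C/D in blue, with the line of equal ratios. Most points lie above the line, with hosts near 0 and members between 1 and 5, and Dancr with Snora26 lies far to the right.

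Most of the examined other short noncoding RNAs were also called higher in the *Eomes* KO and *T* KO libraries of day 2 and in both dKO libraries. In the *T* KO library several abundant ones were not called. Among 1184 symbols of microRNA genes, small Cajal body RNAs, small nuclear RNAs, RNase P and MRP RNAs and the like, on day 2 the *Eomes* KO library had 14 of 19 examined called higher and 2 lower (3.35% and 4.17% of all genes). The counts were 13 and 1 of 18 in dKO cells on day 2 (3.48% and 4.5% of all genes), 16 and 0 of 20 in dKO cells on day 3 (5.51% and 5.53%), and 13 and 2 of 23 in *T* KO cells on day 2 (5.7% and 9.93%). In *T* KO cells on day 3 it was 6 and 0 of 15 (2.12% and 3.92%), and in *Eomes* KO cells on day 3 5 and 2 of 17 (7.39% and 9.01%). On WT day 1 against ES cells, where 21 of 43 snoRNA genes were called higher, it was 3 and 1 of 15 (7.7% and 5.84%), and between the WT lines on day 1, where 27 of 50 were, it was 5 and 4 of 15 (6.58% and 4.27%). *Mir17hg*, a microRNA host gene rather than a short RNA, is counted among those called higher in both *Eomes* KO libraries, *T* KO day 2 and dKO day 2. *Rnu12*, a small nuclear RNA of the minor spliceosome, went from 32.3 to 667.0 in dKO cells on day 3, *Rnu11* from 137.9 to 1072, and *Rpph1*, the RNA of RNase P, from 4331 to 14364, whereas *Scarna13* was at 404.6 and 551.7. In *T* KO cells on day 2 *Rnu12* went from 23.6 to 301.0 and *Rnu11* from 95.5 to 310.0. Not called there were *Rmrp* at 7946 and 8542, *Rpph1* at 3865 and 4662, *Scarna13* at 460.7 and 346.2 and *Scarna6* at 85.6 and 70.2. In *Eomes* KO cells on day 3 *Rmrp* was at 8927 and 5490 and *Scarna6* at 118.3 and 73.0. The recovery of short RNA in each library was not measured, and its part in the snoRNA values was not tested.

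RNAs of the proteins of the snoRNA particles had smaller ratios than the snoRNA genes in the *Eomes* KO library of day 2 and both dKO libraries. Their list medians lay between −0.02 and 0.55. None of 6 H/ACA proteins, 8 C/D proteins and 5 assembly factors was called there. Of all genes, 3.35% were higher and 4.17% lower in the *Eomes* KO library. In the dKO it was 3.48% and 4.5% on day 2 and 5.51% and 5.53% on day 3. For lists this short, 0 calls lies near these shares. On day 2 of *T* KO cells *Fbl*, the methyltransferase, went from 82.9 to 11.5, the C/D assembly factor *Znhit6* from 25.0 to 8.11 and *Gar1* of the H/ACA particle from 12.8 to 2.22. These were the only ones called lower, 1 of 6 H/ACA proteins, 2 of 8 C/D proteins and 0 of 5 assembly factors (9.93% of all genes). On day 3 of *Eomes* KO cells *Fbl* went from 71.8 to 18.7, *Gar1* from 13.1 to 3.35 and the assembly factor *Pih1d1* from 15.6 to 7.68. That was 1 called lower in each of these lists (9.01% of all genes). Lists this short cannot set such counts apart from these shares. Of 14 ribosome-processing and nucleolar factors, 1 was called higher and 1 lower in *T* KO cells on day 2, near the 5.7% and 9.93% of all genes. The lower one was *Ncl*, the host of *Snord82*, at 136.3 and 36.04. Of 6 trimming factors, *Parn* was called lower in the *T* KO library of day 2, at 6.44 against 21.8 (9.93% of all genes were lower). It was also called lower in the *Eomes* KO library of day 3, at 10.5 against 21.9 (9.01%). Of noncoding hosts named for snoRNAs, 3 of 20 examined were called higher in the *Eomes* KO library of day 2 (3.35% of all genes), 7 of 20 in the *T* KO library of day 2 (5.7%), 4 of 19 in the dKO library of day 2 (3.48%) and 3 of 20 in that of day 3 (5.51%), and 1 was called lower, in the *T* KO library of day 2 (9.93%).

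Ratios differed with gene length in a pair of libraries, though mainly among members of few fragments. The shortest H/ACA member has 98 bases, so all members under 80 bases are C/D. Length and snoRNA class thus cannot be told apart in the length groups below. In *T* KO cells on day 2, 22 of 24 examined members under 80 bases were called higher (median log2 ratio 4.13), 9 of 10 from 80 to under 110 bases (2.26) and 17 of 29 of 110 bases or more (1.48). In *Eomes* KO cells on day 3, 10 of 17 members under 80 bases were called higher and 2 lower (median 1.77), but 8 and 7 of 28 of 110 bases or more (0.26). In dKO cells on day 3 the medians were 3.86, 3.06 and 3.62 by the same classes. Across members with at least 10 fragments and above 0 in both columns, Spearman's rho of ratio and length was −0.14 (38 genes) for *T* KO cells on day 2, −0.01 (39) for *Eomes* KO cells on day 3 and 0.16 (46) for dKO cells on day 3. These genes share their 2 columns and are not independent.

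**Figure D5:**
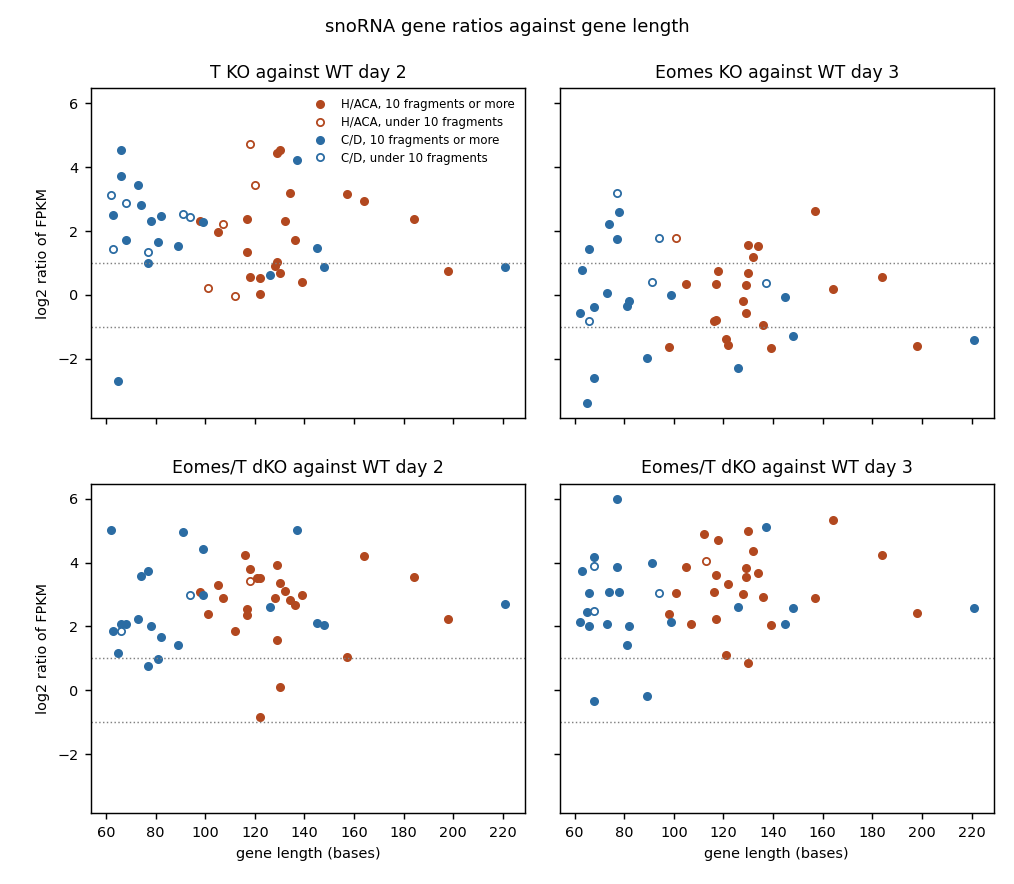
log2 ratio of each examined snoRNA gene above 0 in both columns against gene length in bases, in 4 comparisons, with H/ACA in brown and C/D in blue. Filled points have at least 10 fragments in the higher column and open points fewer, and dotted lines mark 1 and −1. The dKO points lie above 1 at nearly all lengths, and in the T KO members under 80 bases have the highest median.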

How the data were processed

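RNA-seq of 18 samples was analysed. Total RNA of 40000 cells per sample was extracted with Trizol and RNeasy Micro columns, and 100 ng made strand-specific ScriptSeq v2 libraries with 15 PCR cycles, sequenced paired-end. Members are shorter than the fragments such columns and libraries are made for, and their recovery is not given in the sources used here. The deposited values are FPKM, which the authors computed with Cuffdiff 2.2.1 (multi-read and bias correction, no effective length correction) after cutadapt 2.9, HISAT2 2.1.0 and SAMtools 1.9 on mm10 with refSeq genes. Of the 9 tables, each FPKM column is a single value per gene, and no column was left unmatched to a group.

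Ratios were taken within a table. A gene was examined at FPKM above 1 in either column and called at a log2 ratio above 1 or below −1, and a gene at 0 in one column and above 1 in the other was called with no ratio. No test was run, since each column is a single value per gene and both WT libraries could be recovered for part of the genes only. Class medians include members at 0. Fragments per value were recovered from the step in FPKM times length, and pairs of WT libraries were taken where whole numbers hit within 0.005 fragments (plus rounding) and the next best pair was at least 5 times further off. The background of library comparisons was 4752 genes of a single transcript. Named members are the 6 highest of each class, in each comparison the 3 highest and 3 lowest ratios per class among called members of FPKM at least 10 and above 0 in both columns, members of known role, and those above FPKM 1 in every column. Other members named for their fragments, their exceptions or their position in a host were chosen after their values were seen. The members, lists and comparisons were chosen with earlier results of these data known. The decoding and the calls were tested on simulated data. Python 3.11.15, numpy 2.4.6, pandas 2.3.3 and pysam were used.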

Additional observations from a re-analysis of the deposited data

Results flagged for a closer look

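Named snoRNA genes called higher in *Eomes* KO cells on day 2 and lower on day 3, at FPKM 10 or more in one column or the other on each day, are given here. The difference between days was not tested, as each KO value is 1 sample by the labels, and the WT libraries of day 3 lay far apart for several of them. The log2 ratio on day 2 minus that on day 3 was 4.72 for *Snord47*, 4.14 for *Snora43*, 4.07 for *Snord35a*, 4.03 for *Snord22*, 3.65 for *Snord17*, 3.51 for *Snord15a*, 3.37 for *Snora74a* and 3.37 for *Snora26*. The last overlaps an exon of *Dancr*.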

How the results depend on the processing

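No paired analysis was possible because the F1G4 WT columns average both replicates and every other column is 1 sample by the labels. Of 220 recomputed counts, 138 stayed within 1.5 times of the reported one and 82 moved further. Only counts that moved are given below, and a direction not named there stayed within 1.5 times of its reported count. No share over all genes is given beside them, so they do not set snoRNA genes apart from other genes. An offset of 0.1 and centring on the median gene moved none of the 22 counts. Rescaling to TPM shifted all ratios by −0.41 (dKO day 2) to 0.28 (*Eomes* KO day 3) on the log2 scale and let more low values pass FPKM 1. No ratio of a named member was reversed by an offset, by centring or by TPM. Members named for a called ratio had passed 1 or −1, which is beyond these shifts, and an offset keeps the sign. For them a reversal was thus not possible, and its absence is no check. Taking 1 WT library at a time was done for members whose fragments could be recovered, in the comparisons of each KO with both WT libraries, and was not run for the others. The limits are depth in short genes, where 1 fragment can exceed FPKM 1, and the gap between WT libraries.

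With FPKM above 5, 9 members were higher on WT day 1 than in ES cells, 1 was higher and 1 lower on day 2 against day 1, and 4 were higher and 2 lower on day 3 against day 2. For *Smad4* KO it was 2 higher and 5 lower on day 1 and 2 higher and 1 lower on day 2, for *Eomes* KO day 3 7 higher, and for *T* KO 31 higher on day 2 and 1 lower on day 3. With log2 ratios above 2 or below −2, the WT steps gave 9 higher on day 1, 3 higher and 3 lower on day 2 and 3 higher and 2 lower on day 3, *Smad4* KO 2 higher and 7 lower on day 1 and 7 higher and 1 lower on day 2, *Eomes* KO day 3 4 lower, and *T* KO day 3 10 higher and 1 lower. For *Eomes* KO day 3 the other direction did not move under either setting and was not absent.

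With only the 27 members above FPKM 1 in every column, the WT steps gave 8 higher on day 1, 1 higher and 1 lower on day 2 and 3 higher and 2 lower on day 3, and *Smad4* KO 1 higher and 4 lower on day 1 and 2 higher and 1 lower on day 2. *Eomes* KO had 26 higher on day 2 and 5 higher and 7 lower on day 3, *T* KO 17 higher and 1 lower on day 2 and 14 higher and 1 lower on day 3, and the dKO 25 higher on day 2 and 26 on day 3. With members of at least 100 bases, an alternative chosen after seeing the data, the WT steps gave 12 higher on day 1, 3 higher and 1 lower on day 2 and 2 higher and 2 lower on day 3, and *Smad4* KO 3 higher and 7 lower on day 1 and 6 higher on day 2. *Eomes* KO had 30 higher on day 2 and 9 on day 3, *T* KO 19 higher and 1 lower on day 2 and 15 higher and 1 lower on day 3, and the dKO 29 higher on day 2 and 33 on day 3. Both subsets hold fewer members by construction.

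With an offset of 1, 3 members were lower on WT day 2 and 2 in *Smad4* KO on day 2. With no FPKM minimum, 12 were higher and 16 lower on WT day 2, 14 higher and 9 lower on WT day 3, 9 lower in *Smad4* KO on day 2, 5 lower in *T* KO on day 2 and 7 on day 3, and 1 lower in the dKO on day 3. After TPM rescaling, 10 were higher and 10 lower on WT day 2, 8 higher in *Smad4* KO on day 1 and 7 lower on day 2, 5 lower in *T* KO on day 3, and 1 lower in the dKO on each day. With at least 10 fragments in the higher column, also chosen after seeing the data, 1 was lower on WT day 2, *Smad4* KO had 2 higher and 5 lower on day 1 and 5 higher and 1 lower on day 2, *Eomes* KO day 3 had 9 higher, and *T* KO day 2 had 28 higher.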
